A study of Mus musculus with 10 samples.

Results

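Cullins are the scaffold proteins of the largest family of ubiquitin ligases, and F-box proteins are the interchangeable receptors that bring substrates to one of those scaffolds. The 73 genes described here are the rows of the deposited expression table whose symbol begins with Cul, Fbxl, Fbxo or Fbxw followed by a digit, together with Skp1a, Skp2 and Rbx1, with Ccnf left out. They are 73 of the 15507 genes listed. The rule uses symbols and no measured value, although it was set with earlier results of these data known. They comprise 8 cullins, 3 other components of the SCF ligase, 16 Fbxl genes, 35 Fbxo genes and 11 Fbxw genes. One of the Fbxl rows, Fbxl12os, is an antisense RNA, and the other 72 rows are protein-coding genes in GENCODE M21.

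RNA-Seq was performed on germ cells dispersed from the testes of 5 wild type (WT) and 5 homozygous GRTH Knock-In (KI) mice, each mouse giving 1 library. GRTH (Ddx25) is a testicular RNA helicase, and the KI mice bear a human GRTH gene mutated at R242H, whose own reads were not analysed here. All mice were 45 days old, and all germ cells were obtained by dispersion with collagenase and trypsin. The strain is not given in the sources used here. The germ cell fraction holds spermatogonia, spermatocytes and spermatids together, so that fewer cells of a type and less RNA per cell cannot be told apart in any value below.

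In a cullin-RING ligase the C-terminal end of the cullin binds a RING protein, RBX1 or RNF7, which recruits the ubiquitin-charged E2 enzyme, and the other end binds a substrate receptor. CUL1 binds its receptors through the adaptor SKP1, which grips the F-box motif, and the assembly of SKP1, CUL1 and an F-box protein gives the SCF ligase its name. The suffix of an F-box gene names the substrate-binding part, leucine-rich repeats in Fbxl, WD repeats in Fbxw and other domains in Fbxo. Cullins are switched on when the ubiquitin-like protein NEDD8 is attached to them and are switched off by the COP9 signalosome. In the testis, CUL3 together with the receptor KLHL10 is known for its role in late spermatids, and CUL4A is known for its role in meiosis of spermatocytes.

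The depth was 12722086 to 16422347 recovered reads on genes per library, and 3 reads, the limit that a count of 0 allows, correspond to a normalized count of 2.61 to 3.62. This limit covers counting error only. Ddx25 was measured at a normalized count of 7615, 7782, 5198, 11101 and 9458 in WT libraries 1 to 5, and at 146, 194, 161, 2.88 and 1.84 in KI libraries 1 to 5. All KI libraries lay below all WT libraries, matching their labels, but KI libraries 4 and 5 held 3 reads or fewer and KI libraries 1 to 3 did not. The same numbering separates libraries 1 to 3 from libraries 4 and 5 in the read quality given by the study. Values for each set are given below for part of the genes only. Of the 12 markers of elongating spermatids 12 were lower in KI, with summed normalized counts of 274000 to 483000 in WT and 42200 to 83600 in KI. Of the 12 round spermatid markers 5 were lower, with sums of 33900 to 38800 in WT and 18900 to 31100 in KI. The sums of the 15 spermatocyte markers and of the 9 measured spermatogonial markers overlapped between the genotypes. Markers of cells outside the germ line were also present, and the sum of the 9 macrophage markers was 777 to 1030 in WT and 1170 to 1590 in KI. The sum of the 5 endothelial markers was 265 to 365 in WT and 424 to 805 in KI, and that of the 6 peritubular myoid markers was 2750 to 4210 in WT and 1150 to 1640 in KI, although 1 of the 5 tested was lower and 2 were higher. Of the 7 Leydig markers 4 were higher, with a median log2 fold change of 0.69, beside one of 0.69 for the macrophage markers, while the sums of the Leydig markers overlapped at 10900 to 19500 in WT and 15700 to 27000 in KI. The sums of the Sertoli and red blood cell markers overlapped as well, with 1 of 10 and 1 of 4 markers higher. No marker was at 0 in all libraries. The part of these cell populations in the results below was not tested.

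All 73 genes passed the filter on low values, and each was compared between KI and WT by limma on log2(normalized count + 1) with adjustment over the 15389 genes tested. Skp2, Fbxo44, Fbxo2, Fbxl13, Fbxo30, Cul3, Fbxo33 and Fbxw5 were lower in KI and no gene of the group was higher. The 8 lower genes were 11% of the 73, beside 13.3% of all tested genes that were lower. At an unadjusted p under 0.05, 13 of the 73 were lower, beside 18.4%. The 0 higher genes compare with 9.65% of all tested genes, and 10 of the 73 were higher at an unadjusted p under 0.05, beside 16.2% of all genes. The edgeR quasi-likelihood test on the recovered reads also called 0 higher, with 9 at an unadjusted p under 0.05, and DESeq2 called 1, Fbxl17. Skp2, Fbxo44 and Fbxo2 also passed the fold change of 1.5, 4.11% of the group beside 8.22% of all tested genes lower by both thresholds, whereas 6.13% of all genes were higher by both. None of these shares exceeded that of the whole table. Pairing the libraries by number in a replicate block raised the count of higher genes from 0 to 6, which were Fbxl7, Fbxl12, Fbxl17, Fbxo31, Fbxo42 and Fbxw8, and that of lower genes from 8 to 11, which added Cul5, Fbxo24 and Fbxo46. Over all 15389 tested genes the block raised the counts as well, from 1485 to 2256 higher and from 2044 to 2670 lower. The labels do not state such pairs.

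In 7 of the 73 genes every KI library lay below every WT library, beside 10.9% of all tested genes, and in 1 gene, Fbxl17, every KI library lay above, beside 6.8%, or 8 genes in all beside 17.7%. The fold changes of the group were centred near 0, with 35 genes below and 38 above and a median log2 fold change of 0.01, beside 0.03 for all tested genes. The Fbxl genes leaned upward, with 12 of 16 above 0 and a median of 0.19, and the Fbxo genes had a median of −0.04 with 20 of 35 below 0. These medians are descriptions, and scaling the libraries to their totals moved the median of all genes to 0.25 and that of the group to 0.24.

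**Figure D1:**
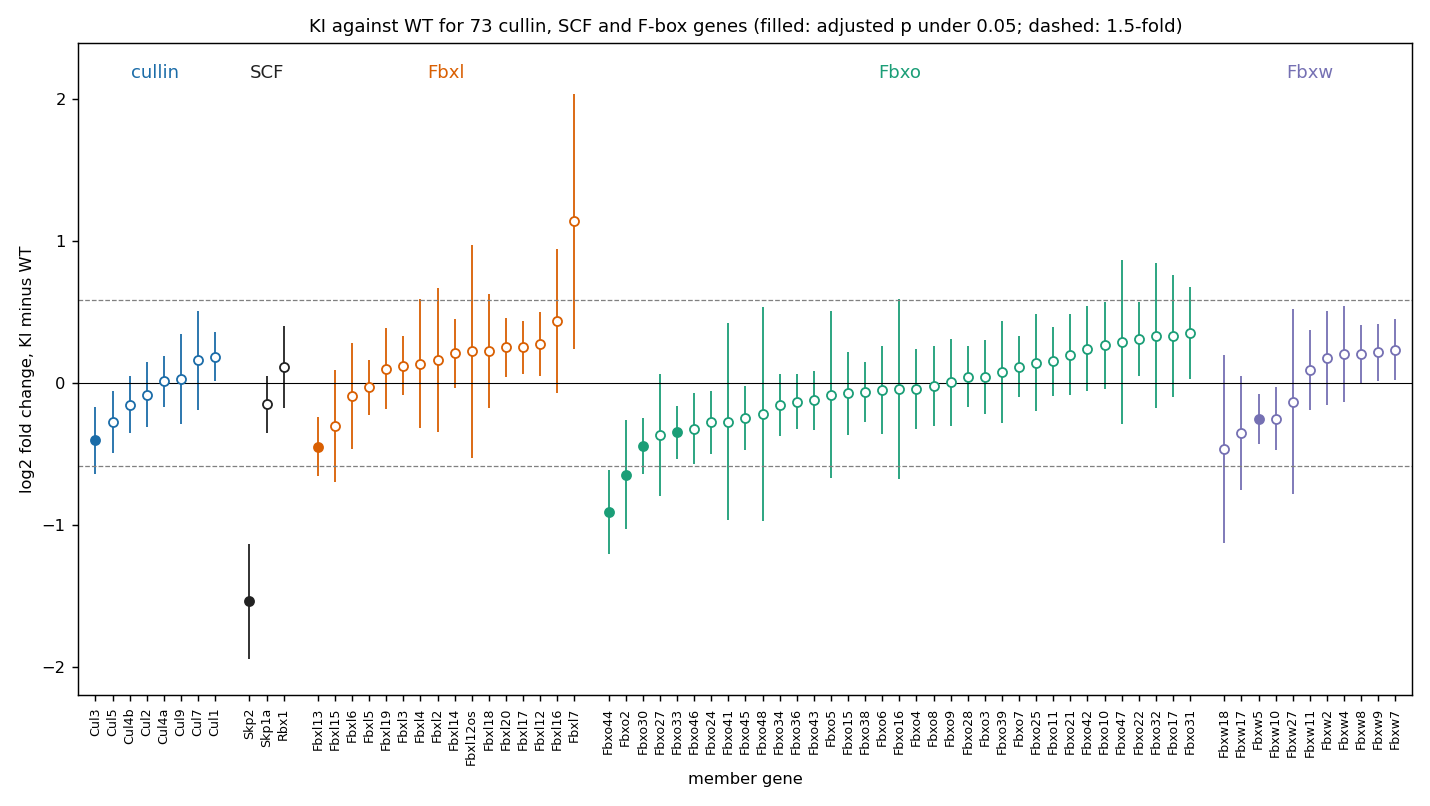
Log2 fold change, KI minus WT, of each of the 73 genes, ordered within its class along the horizontal axis; points are limma estimates, bars their 95% confidence intervals, filled points have an adjusted p under 0.05 and dashed lines mark a fold change of 1.5. The 8 filled points all lie below 0, Skp2 lies lowest at −1.54, and Fbxl7 lies highest at 1.14 with the widest interval.

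Skp2 had the largest difference of the group. SKP2 is itself an F-box protein with leucine-rich repeats, and it is best known for marking the cell cycle inhibitor p27 for destruction. The gene lies on chromosome 15 from 9111982 to 9155425 on the minus strand (mm10). Its normalized count was 2084, 2170, 2551, 1223 and 1422 in WT libraries 1 to 5 and 624, 757, 685, 673 and 442 in KI libraries 1 to 5. The genotypes did not overlap, and within WT libraries 4 and 5 were the lowest. The means of WT and KI were 1890 ± 552 and 636 ± 119 (SD, n = 5), 2.97-fold lower in KI. On the log2 scale KI differed from WT by −1.54 (SE 0.19, limma adjusted p = 3.21e-05). Libraries 1 to 3 alone gave −1.72 and libraries 4 and 5 alone −1.27, and both passed the test.

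The partners of SKP2 in the ligase did not pass the test. Skp1a, the adaptor gene on chromosome 11, was measured at 3173 ± 314 in WT and 2855 ± 235 in KI (SD, n = 5), a log2 fold change of −0.15 with a 95% interval of −0.35 to 0.05. Rbx1, the RING gene on chromosome 15, was measured at 385 ± 54.2 in WT and 420 ± 74.1 in KI (SD, n = 5), a log2 fold change of 0.12 with an interval of −0.17 to 0.41. A pseudogene, Rbx1-ps, could share its reads, so that the value of Rbx1 is uncertain. Cks1b, which encodes the accessory protein that SKP2 needs to recognise p27, was measured at 81.9 ± 16 in WT and 77.2 ± 17.2 in KI (SD, n = 5), with an interval of −0.48 to 0.29 on the log2 scale. The intervals of Skp1a and Rbx1 thus held no change as large as 1.5-fold, and none of the 3 reached the interval of Skp2, −1.94 to −1.13. The ratio of the normalized counts of Skp2 to Skp1a was 0.597 ± 0.171 in WT and 0.222 ± 0.0336 in KI (SD, n = 5), without overlap between the genotypes.

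RefSeq annotates more than one start for Skp2 on GRCm38.p6, and the 300-base windows around the outer and the inner start are shown because this gene changed most. Each runs 5′ to 3′ on the gene's strand from 250 bases before the start to 50 after it. Capitals are reserved for TGACG, the core of the cAMP response element, which is bound in spermatids by the activator CREM, and neither window of Skp2 holds it on either strand. The outer window, chr15:9155376-9155675, has a GC content of 43.7% and the inner window, chr15:9140405-9140704, one of 63.7%.
Skp2 outer start: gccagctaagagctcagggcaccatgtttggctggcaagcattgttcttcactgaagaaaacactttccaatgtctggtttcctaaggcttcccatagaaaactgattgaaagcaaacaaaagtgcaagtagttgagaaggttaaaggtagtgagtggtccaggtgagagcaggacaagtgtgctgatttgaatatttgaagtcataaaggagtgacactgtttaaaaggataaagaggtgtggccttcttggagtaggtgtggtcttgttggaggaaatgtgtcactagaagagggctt
Skp2 inner start: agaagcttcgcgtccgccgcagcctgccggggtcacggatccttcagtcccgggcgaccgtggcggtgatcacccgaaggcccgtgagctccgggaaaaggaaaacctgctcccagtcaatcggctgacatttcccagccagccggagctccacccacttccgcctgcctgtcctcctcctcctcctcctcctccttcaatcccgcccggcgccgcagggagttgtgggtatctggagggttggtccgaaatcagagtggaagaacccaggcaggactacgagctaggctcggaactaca

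Fbxo44 and Fbxo2 were the other genes lower by more than 1.5-fold. Both encode receptors of the FBA subfamily, in which FBXO2 binds N-linked glycans of misfolded glycoproteins. They lie beside each other on chromosome 4, Fbxo44 from 148152799 to 148160094 on the minus strand and Fbxo2 from 148160668 to 148166417 on the plus strand, so that the genes point away from each other with 574 bases between their starts. Fbxo44 was measured at 1067, 801, 934, 601 and 867 in WT libraries 1 to 5 and at 447, 472, 491, 467 and 362 in KI libraries 1 to 5. The genotypes did not overlap, and the log2 fold change was −0.91 (SE 0.14, limma adjusted p = 2.10e-04). Fbxo2 was measured at 144, 150, 182, 179 and 200 in WT libraries 1 to 5 and at 115, 128, 142, 104 and 68 in KI libraries 1 to 5. The highest KI library lay just below the lowest WT library, and the log2 fold change was −0.65 (SE 0.18, limma adjusted p = 0.0165). Without KI library 5 it no longer reached 1.5-fold, and in libraries 1 to 3 alone it was −0.31 and did not pass the test, against −1.16 in libraries 4 and 5. The call was also lost with scaling to library totals (−0.42) and to spermatocyte markers (−0.50). The difference between the sets had an unadjusted limma p of 0.0063 and an adjusted p of 0.14.

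The third gene of the cluster, Fbxo6, starts 664 bases from the end of Fbxo44 on the same strand and encodes another glycan-binding receptor. It was measured at 239 ± 37 in WT and 232 ± 38.1 in KI (SD, n = 5), a log2 fold change of −0.05 with a 95% interval of −0.36 to 0.26. The ratio of Fbxo44 to Fbxo6 in normalized counts was 2.09 to 4.95 in WT and 1.68 to 2.18 in KI, so that the ranges overlapped through WT library 4. Of the 5 FBA genes 2 were lower at the adjusted p, beside 13.3% of all tested genes, and the remaining Fbxo17 and Fbxo27 did not pass the test, with log2 fold changes of 0.34 and −0.37. Fbxo6, Fbxo17 and Fbxo27 were named after their values were seen.

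The windows around the starts of Fbxo44, chr4:148160045-148160344, and Fbxo2, chr4:148160418-148160717, are shown because these neighbours both fell. Each contains 1 TGACG, in capitals, beginning at position −44 from the start of Fbxo44 and −47 from that of Fbxo2. RefSeq gives 3 windows for Fbxo44, of which the one at its outermost start is shown.
Fbxo44: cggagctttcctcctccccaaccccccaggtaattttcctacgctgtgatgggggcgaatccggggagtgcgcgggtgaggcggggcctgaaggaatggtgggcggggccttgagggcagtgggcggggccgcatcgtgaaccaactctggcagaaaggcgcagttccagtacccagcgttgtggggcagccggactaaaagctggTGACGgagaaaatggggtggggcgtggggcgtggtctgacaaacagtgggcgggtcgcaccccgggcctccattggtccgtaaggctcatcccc
Fbxo2: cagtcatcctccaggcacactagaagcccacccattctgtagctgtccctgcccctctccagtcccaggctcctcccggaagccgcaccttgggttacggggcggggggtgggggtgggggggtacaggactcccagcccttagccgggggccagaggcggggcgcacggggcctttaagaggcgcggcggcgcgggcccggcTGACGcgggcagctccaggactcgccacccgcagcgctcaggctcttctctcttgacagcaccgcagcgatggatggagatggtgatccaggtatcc
Over all 32851 RefSeq promoter windows of this length, 20.8% hold TGACG on either strand. The GC box GGGCGG was found 3 times in the Fbxo44 window and once in each of the Fbxo2 and inner Skp2 windows, beside 35.7% of all windows with at least 1, and CCAAT was found once in the Fbxo44 window and once in the outer Skp2 window, beside 37.4%. These matches describe the letters alone, and no binding was measured.

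Fbxo30, Fbxl13 and Fbxo33 were lower by less than 1.5-fold, without overlap between the genotypes. Fbxo30, on chromosome 10 and known from muscle wasting, was measured at 5705, 6418, 5546, 5023 and 5422 in WT libraries 1 to 5 and at 4010, 3870, 3912, 4709 and 4198 in KI libraries 1 to 5 (log2 fold change −0.44, SE 0.09, limma adjusted p = 0.0028). KI library 4 came closest to WT. Fbxl13, on chromosome 5, encodes the counterpart of a flagellar dynein regulatory complex subunit, and it was measured at 1923, 1896, 1949, 1493 and 2050 in WT and at 1257, 1406, 1268, 1450 and 1415 in KI (log2 fold change −0.45, SE 0.10, limma adjusted p = 0.00353). WT library 4 lay close to the KI libraries. Exons of Fbxl13 overlap those of Lrrc17 on the other strand over 161 bases, and the strand setting of the counting is not given in the sources used here. Fbxo33, on chromosome 12, a receptor known for the Y-box protein YB-1, was measured at 717, 791, 663, 714 and 664 in WT and at 588, 556, 525, 518 and 600 in KI (log2 fold change −0.35, SE 0.09, limma adjusted p = 0.00992). Its 5 KI libraries lay close together below WT.

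Fbxw5, on chromosome 2, encodes a WD repeat receptor known for limiting centriole duplication. Its normalized count was 6629, 7509, 7185, 7126 and 7581 in WT libraries 1 to 5 and 5497, 6243, 5950, 6339 and 6225 in KI libraries 1 to 5. The genotypes did not overlap but the difference was small, −0.25 on the log2 scale (SE 0.08, limma adjusted p = 0.0412), and the call was lost in 11 of 24 alternatives. Fbxl17, on chromosome 17, known for the quality control of BTB protein dimers, moved by the same size in the other direction. It was measured at 289, 301, 319, 300 and 302 in WT and at 361, 331, 374, 362 and 374 in KI. All KI libraries lay above all WT libraries, 0.25 higher on the log2 scale (SE 0.09), and the limma adjusted p of 0.0503 did not pass the threshold, whereas it was 0.031 with the replicate block.

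**Figure D2:**
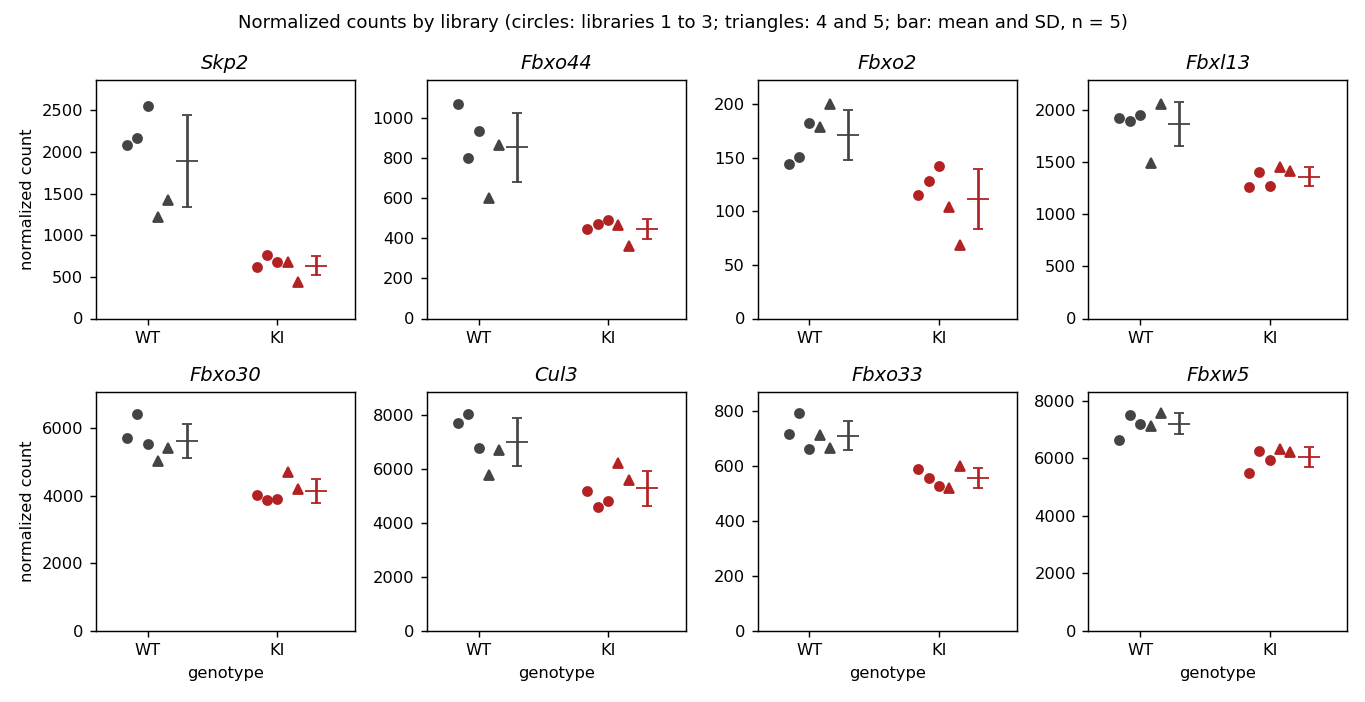
Normalized count (vertical axes, from 0) of the 8 genes that were lower in KI, by genotype (horizontal axes); circles are libraries 1 to 3, triangles libraries 4 and 5, and bars give the mean ± SD of 5 libraries. The genotypes are apart in 7 panels and overlap in that of Cul3, where KI library 4 lies above the lowest WT library.

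Among the cullins, Cul3 passed the test. CUL3 forms ligases with BTB-domain receptors, and it was the cullin whose RNA the study also measured by quantitative PCR. Cul3 lies on chromosome 1 from 80264923 to 80340690 on the minus strand. It was measured at 7683, 8011, 6763, 5760 and 6697 in WT libraries 1 to 5 and at 5175, 4599, 4797, 6200 and 5581 in KI libraries 1 to 5. KI library 4 lay above WT library 4, and in libraries 1 to 3 the genotypes did not overlap. On the log2 scale the difference over all libraries was −0.40 (SE 0.11, limma adjusted p = 0.0163). Libraries 1 to 3 gave −0.62 (limma adjusted p = 1.84e-05), whereas libraries 4 and 5 gave −0.08 (limma adjusted p = 0.793), and the difference between the sets had an adjusted p of 0.106.

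The primers with which the study measured Cul3 are shown because they define which Cul3 transcripts were amplified there. Capitals in the forward primer mark the bases that lie in the later of the exons it joins.
Cul3 forward: gattcaaacagTTGCAGCCAAACAAG
Cul3 reverse: ctggacttggtaagaatcgagcct
In GENCODE M21 the forward primer spans the junction of exons 14 and 15 of 16 in Cul3-201, between 80269341 and 80271534 of chromosome 1, and the reverse primer lies in exon 16, from 80267248 to 80267271. The pair gives a product of 197 bases in Cul3-201, Cul3-202 and Cul3-204, whereas the normalized counts sum reads over the whole gene.

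The other cullins did not pass the test. Cul5, the scaffold for SOCS-box receptors, was measured at 1803, 1724, 1521, 1298 and 1346 in WT libraries 1 to 5 and at 1259, 1252, 1163, 1381 and 1254 in KI libraries 1 to 5. It had the same shape as Cul3, with the genotypes apart in libraries 1 to 3 (log2 fold change −0.45) and not in libraries 4 and 5 (−0.01), and an overall limma adjusted p of 0.0683 that became 0.0377 with the replicate block. Cul1, the SCF scaffold, had a log2 fold change of 0.19 with a 95% interval of 0.01 to 0.36 and a limma adjusted p of 0.117. Cul4a and its X-linked paralogue Cul4b, the scaffolds of the DDB1-dependent ligases, had log2 fold changes of 0.01 (interval −0.17 to 0.19) and −0.15 (interval −0.35 to 0.05). Cul2, the scaffold used by the VHL tumour suppressor, had a log2 fold change of −0.08 (interval −0.31 to 0.15). Cul7, which uses the F-box protein FBXW8, had one of 0.16 (interval −0.19 to 0.51), and its paralogue Cul9 one of 0.03 (interval −0.29 to 0.34). Cul9 was measured at 742, 921, 882, 1186 and 1419 in KI libraries 1 to 5 and at 882 to 1102 in WT, so that KI libraries 4 and 5 lay above all WT libraries and KI library 1 below them. Each interval of an uncalled cullin excluded a 1.5-fold change in either direction.

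Levels were compared between genes as normalized counts per kilobase of exon. The order of the cullins was the same in both genotypes, Cul3, Cul1, Cul4b, Cul4a, Cul5, Cul2, Cul9 and Cul7, from 1433 ± 183 to 27.1 ± 6.98 in WT and from 1082 ± 132 to 29.8 ± 4.17 in KI (SD, n = 5). Neighbours in this order overlapped between Cul4b and Cul4a in both genotypes and between Cul2 and Cul9 in KI. Of all 73 genes, Fbxw5, Skp1a, Cul3, Fbxo30 and Fbxw10 stood highest in WT, at 1057 to 2361 per kilobase, and 9 genes stood below 10. The median level was 48.6 for the Fbxl genes, 92.6 for the Fbxo genes and 65.2 for the Fbxw genes in WT. Skp2 moved from rank 17 of the 73 in WT to rank 40 in KI, Fbxo44 from 15 to 23 and Fbxo2 from 27 to 38, whereas Cul3 was at rank 3 in both. Fbxl7, the lowest of the group, had 3 reads in its lowest library and a normalized count of 3.62 to 15 in WT and 8.85 to 28.5 in KI. Its log2 fold change of 1.14 had an interval of 0.24 to 2.04 and a limma adjusted p of 0.0645, or 0.0303 with the replicate block.

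**Figure D3:**
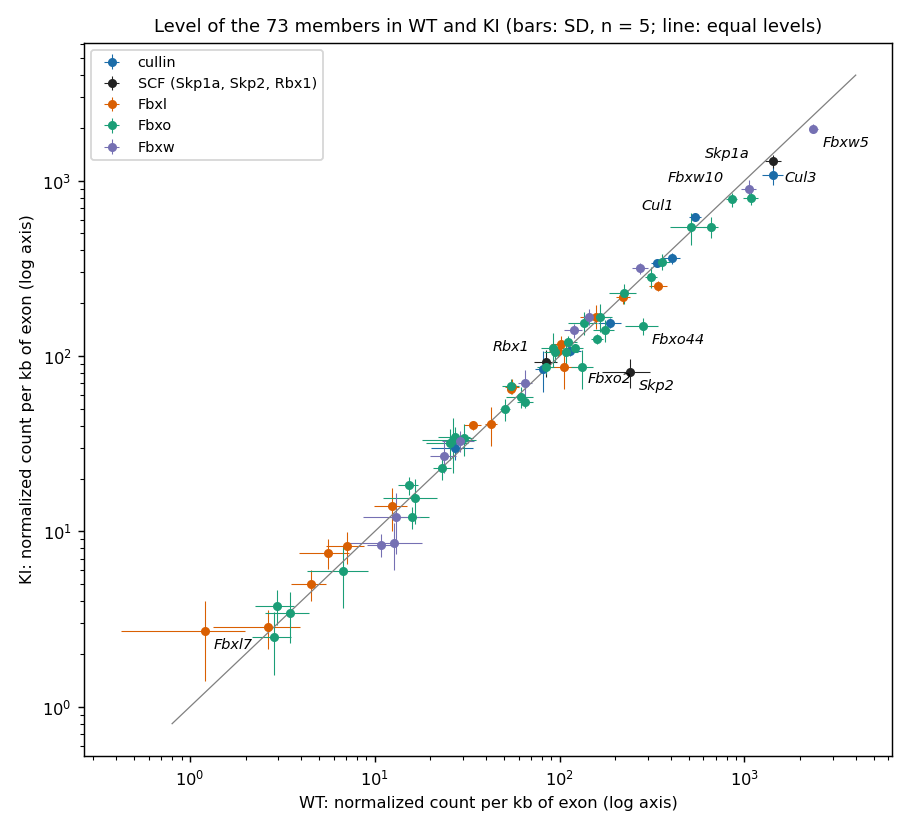
Level of each of the 73 genes in WT (horizontal) and KI (vertical) as normalized count per kilobase of exon on log axes; points are means and bars SDs of 5 libraries, coloured by class, and the line marks equal levels. Skp2 (240 in WT, 80.8 in KI) and Fbxo44 (282 and 148) lie furthest below the line among genes above 100 in WT.

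Among the F-box genes with the highest levels per kilobase, Fbxw10, Fbxo36 and Fbxo24 did not pass the test. Fbxw10, known from testis, was measured at 4256 ± 392 in WT and 3589 ± 481 in KI (SD, n = 5, limma adjusted p = 0.098), and part of its exons overlaps Trim16 on the same strand. Fbxo36 was measured at 1836 ± 128 and 1679 ± 156 (SD, n = 5, limma adjusted p = 0.335). Fbxo24, whose loss is known to impair sperm in mice, was measured at 1650 ± 155 and 1367 ± 186 (SD, n = 5, limma adjusted p = 0.0707, or 0.0365 with the replicate block), and it shares exonic bases with Pcolce. Of the 7 F-box genes known for expression in testis 1, Fbxl13, passed the test, and of the 10 F-box genes of the cell cycle and meiosis 1, Skp2, passed, or 14.3% and 10% lower beside 13.3% of all tested genes. With the replicate block Fbxo24 was added to the first list as lower and Fbxl12 and Fbxo31 to the second as higher. The block gave 2670 lower and 2256 higher of all 15389 tested genes.

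Over all 65 genes that did not pass, log2 fold changes ran from −0.47 in Fbxw18 to 0.44 in Fbxl16, apart from Fbxl7, and these 3 genes were named after their values were seen. In 46 of them the 95% interval excluded a change of 1.5-fold in either direction, and in the other 19 it did not. The summed normalized count of the 73 genes was 66300 ± 2840 in WT and 58900 ± 1730 in KI (SD, n = 5), without overlap. As a share of all reads on genes, the sum was 0.416% ± 0.0109 in WT and 0.433% ± 0.0105 in KI, so that the direction of the sum turned with the scale.

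Libraries 1 to 3 and libraries 4 and 5 were also fitted apart. In libraries 1 to 3, 13 of the 73 genes were lower and 7 higher at the adjusted p, beside 17.9% and 13.3% of all tested genes. Of the 13 lower genes 12 were below 0 in libraries 4 and 5 and 2 were called there, and of the 7 higher genes 4 were above 0 and 0 were called there by limma. In libraries 4 and 5, with 2 libraries of each genotype, Skp2, Fbxo44 and Fbxo2 were lower and 0 genes were higher by limma, beside 7.62% and 3.42% of all tested genes, and at an unadjusted p under 0.05 the counts were 4 and 1. All 8 genes that were lower over all libraries were below 0 in both sets, 7 of them without overlap in either set. The 8 were called on these same libraries, so the sets are no separate check of them. Genes without overlap over all libraries are by necessity without overlap in each set. In 7 of the 8 the fall was larger in libraries 1 to 3, the exception being Fbxo2. The difference between the sets passed the adjusted threshold in 0 of the 73 genes by limma and by edgeR, beside 0.247% of all tested genes, and 11 genes (15.1%) had an unadjusted p under 0.05 in each, beside 16.1% of all genes by limma. Without KI library 4, 1 gene, Fbxo2, passed the adjusted threshold. Across the 73 genes the fold changes of the sets had a Pearson r of 0.509, and across all tested genes one of 0.741. These points share libraries within each set, and the genes are not independent.

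**Figure D4:**
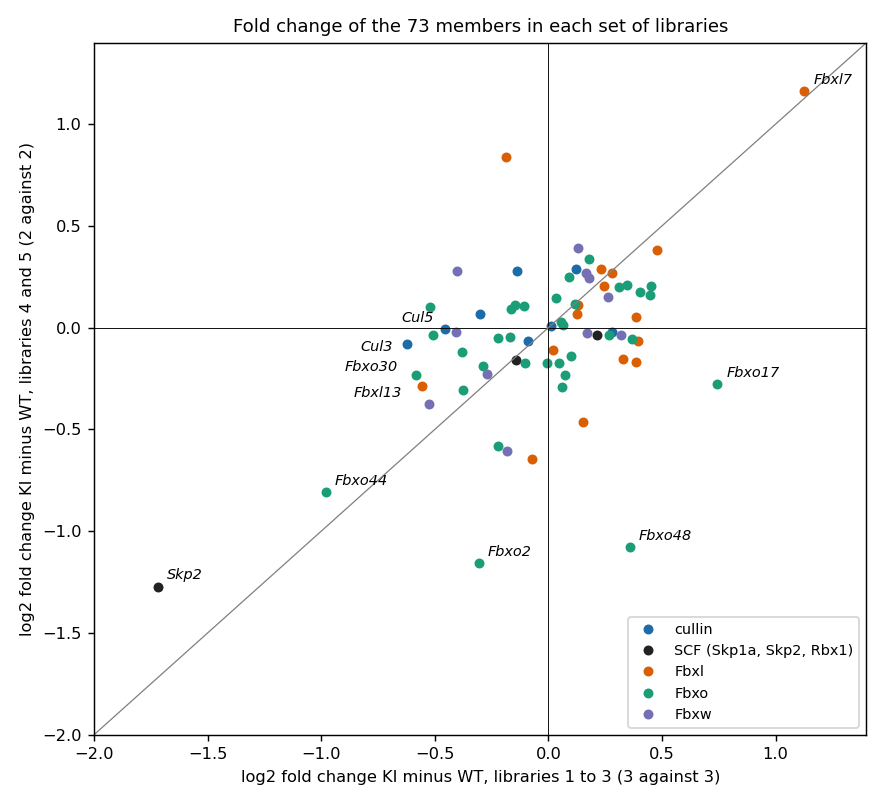
Log2 fold change, KI minus WT, of the 73 genes in libraries 1 to 3 (horizontal) and in libraries 4 and 5 (vertical), with a line of equal values. Skp2 (−1.72 and −1.27) and Fbxo44 (−0.98 and −0.81) lie low on both axes, Cul3 (−0.62 and −0.08) and Cul5 (−0.45 and −0.01) lie near 0 on the vertical axis, and Fbxo2 (−0.31 and −1.16) lies below the line.

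The other genes of the cullin-RING pathway were taken from lists of regulators, linkers and receptors, of which 120 were tested. In KI 23 of them were lower and 5 higher at the adjusted p, 23.3% in all beside 22.9% of all tested genes, and 9 were lower and 2 higher by both thresholds, 9.17% beside 14.4%. The lower 9 did not overlap between the genotypes, but they were called on these same libraries. Past both thresholds over all libraries, Socs7, Dcaf1, Asb1, Cdc34 and Ccdc8 did not pass the adjusted threshold in libraries 4 and 5 alone. Their log2 fold changes there were −0.32, −0.35, −0.44, −0.58 and 1.25. In libraries 1 to 3 these were −0.84, −0.82, −0.83, −0.68 and 1.05. In 21 of the 120 every KI library lay below every WT library, beside 10.9% of all tested genes. In 2 every KI library lay above, beside 6.8%. With the replicate block 31 were lower and 11 higher, and 10 and 2 by both thresholds. Over all 15389 tested genes the block gave 2670 lower and 2256 higher, and 1343 and 1067 by both thresholds. Pathway genes, Cks1b among them, that did not pass both thresholds and are given by name were chosen after their values were seen.

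The largest fall of a single gene, that of Dcun1d1, was in the list of NEDD8 conjugation. The median log2 fold change of this list was −0.06, beside −0.20 for the linkers and −0.15 for the CUL2 and CUL5 receptors. By both thresholds 1 of its 12 genes (8.33%) was lower, beside 8.22% of all tested genes. At the adjusted p 4 of the 12 (33.3%) were lower and 0 higher by limma, beside 13.3% and 9.65% of all tested genes. The higher count was also 0 at an unadjusted p under 0.05 and with the replicate block. Dcun1d1, on chromosome 3 from 35892105 to 35932966, encodes a co-ligase that helps to transfer NEDD8 to cullins. It was measured at 3903, 3966, 3773, 2048 and 2247 in WT libraries 1 to 5 and at 1096, 911, 1015, 789 and 667 in KI libraries 1 to 5. The genotypes did not overlap, WT libraries 4 and 5 were the lowest of WT as for Skp2, and the log2 fold change was −1.79 (SE 0.19). Its paralogues Dcun1d3 and Dcun1d4 were lower as well, at −0.52 and −0.33, whereas Dcun1d2 (0.28) and Dcun1d5 (−0.05) did not pass the test. Ube2f, the NEDD8 E2 that serves CUL5, was lower at −0.36. Ube2m, the NEDD8 E2 that serves the other cullins, had a log2 fold change of 0.07 (interval −0.14 to 0.28), and Nedd8 itself one of −0.08 (interval −0.28 to 0.13).

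Of the 13 genes of the COP9 signalosome, the CAND exchange factors and glomulin, 2 (15.4%) were lower, beside 13.3% of all tested genes. With the replicate block 3 were lower, beside 2670 of all 15389 tested genes with the block. The 2 called without the block were Cops5 (−0.37), the subunit that cuts NEDD8 off cullins, and Glmn (−0.45), which blocks the RING of RBX1. Cand1 was measured at 6157 ± 631 in WT and 6293 ± 1584 in KI (SD, n = 5), with a log2 fold change of 0.00. Of the 8 E2 enzymes and ARIH ligases that work with cullins 2 (25%) were lower, beside the same 13.3%. The 2 were the paralogues Cdc34 (−0.64) and Ube2r2 (−0.36). With the replicate block 3 of the 8 were lower, beside 2670 of all 15389 tested genes with the block. Cdc34, the first E2 found to act with SCF, was measured at 3803, 4065, 5086, 3568 and 3206 in WT and at 2297, 2897, 2897, 2730 and 1881 in KI. Its genotypes did not overlap. Of the 6 linkers 1 (16.7%, beside 13.3%) was lower, Dda1 (−0.69), a small subunit of the DDB1 ligases. With the replicate block the elongin genes Elob (−0.33) and Eloc (−0.31) passed as well, beside 2670 lower of all 15389 tested genes. Ddb1 had a log2 fold change of 0.15 (interval −0.07 to 0.37).

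The receptors of CUL2 and CUL5 ligases were the longest list, with 10 lower and 3 higher of 41, or 24.4% lower and 31.7% in either direction beside 13.3% and 22.9% of all tested genes. With the replicate block the counts were 13 and 6, beside 2670 and 2256 of all 15389 tested genes with the block. By both thresholds 5 of the 41 were lower and 1 higher, 14.6% in all beside 14.4% of all tested genes. The 14 measured Asb genes, whose ankyrin repeat proteins serve CUL5, were set apart from this list and were no list of their own. Of these 14 genes 6 were lower and 1 higher, beside 13.3% and 9.65% of all tested genes. Asb17, known for its expression in testis, was measured at 2767, 2803, 2643, 1309 and 1655 in WT libraries 1 to 5 and at 854, 798, 830, 596 and 459 in KI libraries 1 to 5 (log2 fold change −1.63, SE 0.22). The genotypes did not overlap, and WT libraries 4 and 5 were again the lowest of WT. Asb8 (−0.92), Asb9 (−0.84), Asb1 (−0.67) and Socs7 (−0.63) were also lower by both thresholds, and Asb12 (0.70) was higher. Of the 22 receptors of CUL4 ligases 3 (13.6%) were lower and 1 higher, beside 13.3% and 9.65% of all tested genes. Dcaf1 (−0.63) was past both thresholds. With the replicate block 4 of the 22 were lower and 2 higher, beside 2670 and 2256 of all 15389 tested genes. Ccdc8, a partner of CUL7 with OBSL1, was higher by 1.13 on the log2 scale although the genotypes overlapped, at 32.6 to 97.1 in WT and 86.6 to 158 in KI, and Obsl1 had a value of 0.04. Of the 16 genes of the anaphase-promoting complex, a ligase with a cullin-like subunit, 1 (6.25%) was lower, Anapc10 (−0.40), beside 13.3% of all tested genes. With the replicate block Cdc20 (0.31) and Anapc7 (0.35) were higher, beside 2256 higher of all 15389 tested genes. The genes named for a call with the replicate block alone were chosen after their values were seen.

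**Figure D5:**
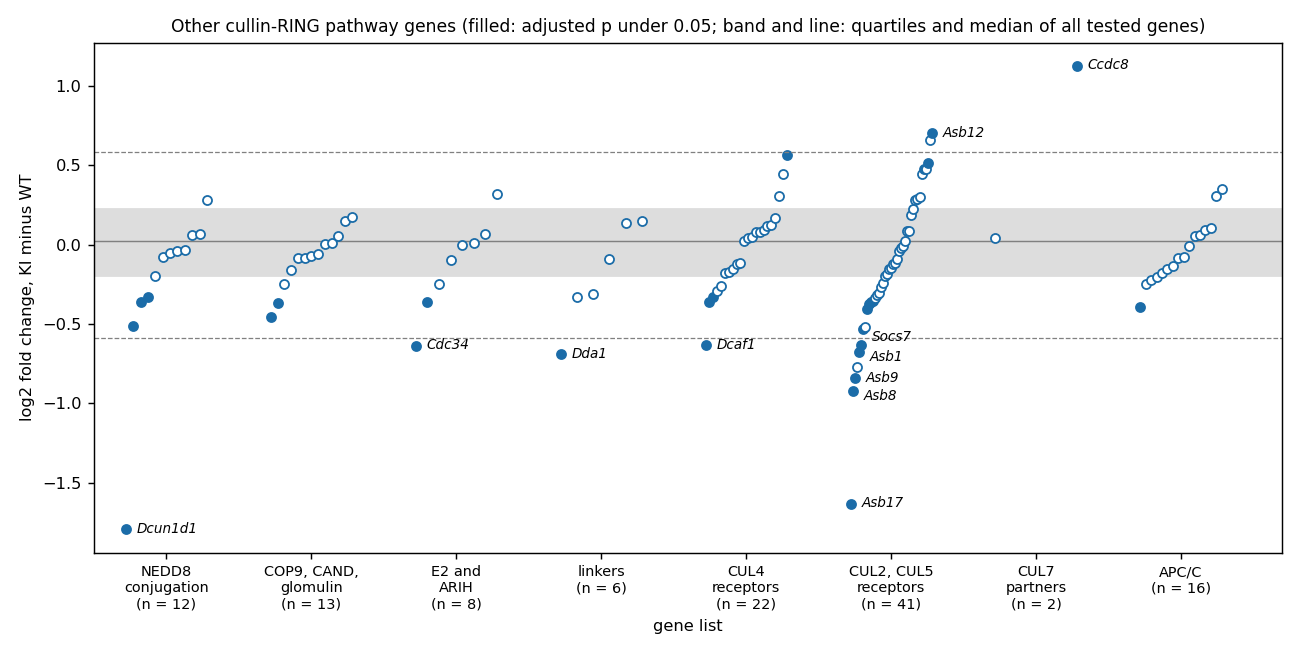
Log2 fold change, KI minus WT, of the 120 other pathway genes by list (horizontal axis); filled points have an adjusted p under 0.05, dashed lines mark a fold change of 1.5, and the grey band and line give the quartiles (−0.20 to 0.23) and median (0.03) of all tested genes. Dcun1d1 (−1.79) and Asb17 (−1.63) lie lowest, and the named points are the 11 genes past both thresholds.

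Skp2, Dcun1d1 and Asb17 moved in the direction of the elongating spermatid markers, whose sum was lower in KI without overlap as given above, and the part of that population in these 3 genes was not tested.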

How the data were processed

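Germ cell RNA-Seq libraries from 5 WT and 5 KI mice were compared. Per the labels and the methods of the study, reads were aligned to mm10 with STAR and quantified per gene with Partek E/M against the RefSeq_v91 annotation. The signal deposited by the authors is the gene count divided by the DESeq2 size factor of the library, called normalized count here. Dividing by the value of 1 read gave whole reads, within 0.1 read, for 100% of values under 5000 reads. Every column was assigned (columns not assigned, 0).

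Normalized counts were tested as log2(value + 1) with limma 3.58.1 (R 4.3.3) with a variance trend, on genes passing filterByExpr of edgeR by genotype on the recovered reads, with Benjamini-Hochberg adjustment over 15389 genes. Thresholds were an adjusted p under 0.05 and a fold change of 1.5. The added 1 shrinks changes of low genes. Alternatives were edgeR 4.0.16 and DESeq2 1.42.0 on recovered reads, other scalings, filters and pseudocounts, library sets, a replicate block and leaving out libraries. The replicate block treats libraries of the same number as pairs, although no label pairs a WT mouse with a KI mouse. The deviations of same-numbered WT and KI libraries from their genotype means had correlations of 0.306, 0.105, 0.28, 0.216 and 0.462. WT library 3 correlated best with KI library 2, and KI library 2 with WT library 3, so the numbers do not establish pairs. The part of the library sets in these correlations was not tested. Replicates differed beyond sampling noise (chi-square per degree of freedom 2.66 to 46.6). The tests were checked on simulated data with few changed genes and no difference between library sets. That check therefore does not cover the choice of scaling or the library sets.

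Genes named were all cullins, Skp1a, Skp2 and Rbx1, F-box genes past the adjusted threshold or without overlap, the 5 highest F-box genes per kilobase, pathway genes past both thresholds, and Ddx25. Members and lists were chosen with earlier results of these data known. Deposited starts are 1-based, and 1 was taken from the deposited stops. Exons were from GENCODE M21 and promoter windows from RefSeq on GRCm38.p6, where 54 of the 73 genes matched. The fold changes and p-values of the authors' own comparison were not used.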

Additional observations from a re-analysis of the deposited data

Results flagged for a closer look

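In WT library 4 the normalized count of Fbxl13 was 1490, whereas the other WT libraries lay between 1900 and 2050. The gap was 0.724 of the range, above Dixon's critical value of 0.71 for 5 samples. It was the 1 such case among 66 groups of 5 libraries, and chance gives about 1 in 20.

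The difference of Ddx25, the targeted gene, between KI and WT was larger in libraries 4 and 5 than in libraries 1 to 3 by −6.25 on the log2 scale (limma adjusted p of the difference 1.12e-10). KI libraries 4 and 5 held 3 reads or fewer, so that this value depends on the added 1.

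Fbxo17 and Fbxo48 moved in opposite directions in the library sets, and each was without overlap in both sets. For Fbxo17 libraries 1 to 3 gave a log2 fold change of 0.74 and the other libraries one of −0.28, a difference of −1.02 (limma p 0.00552, adjusted p 0.136). For Fbxo48 the values were 0.36 and −1.08, a difference of −1.43 (limma adjusted p 0.285) at normalized counts of 4.81 to 23.1. Neither difference passed the adjusted threshold, and both genes were chosen after their values were seen. The share of all tested genes with this pattern was not counted. With so few libraries in each set, genotypes can lie apart without a true difference.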

How the results depend on the processing

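Skp2 and Fbxo44 kept their direction and their call in all 24 alternatives. The calls of Cul3, Fbxl13 and Fbxo33 were lost with scaling to totals or to spermatocyte markers and in libraries 4 and 5 alone, that of Fbxo2 with the same scalings and in libraries 1 to 3, and that of Fbxo30 with spermatocyte markers and in libraries 4 and 5. The replicate block added calls, as given beside the results, and lost none among the 73 genes or the 120 pathway genes. The adjusted p of Cul3 ran from 1.84e-05 to 0.793. Fbxo2 kept its call but not the 1.5-fold change with the upper quartile, at −0.55. The 8 lower genes became 3 with scaling to library totals, 2 with scaling to spermatocyte markers, 5 at an adjusted p under 0.01, 13 in libraries 1 to 3 and 3 in libraries 4 and 5. Of the 15 spermatocyte markers 2 were themselves lower in KI, with a median log2 fold change of −0.12 over the list. Scaling to them moved the median of all genes to 0.18. The 0 higher genes became 19 with totals, 10 with the upper quartile, and 1 each with a pseudocount of 0.1, a filter of 100 reads and DESeq2. They became 6 with the replicate block, 5 with library set as a term and 7 in libraries 1 to 3. Totals and the upper quartile moved the whole table upward, its median rising from 0.03 to 0.25 and 0.12. That of the 73 genes rose from 0.01 to 0.24 and 0.11. The share of the whole table higher at the adjusted p was not counted for either scaling. The counts of 19 and 10 are therefore not read as a feature of the 73 genes. Past both thresholds 0 higher became 2 with totals and 1 each with the upper quartile, the replicate block, the set term and libraries 1 to 3. Leaving out each library in turn gave 7 to 10 lower, 0 to 2 higher, and 0 to 1 higher past both thresholds, where the 1 was Fbxl7 without WT library 2, WT library 5 or KI library 1. It gave 0 to 1 gene with a difference between library sets, the 1 without KI library 4 being Fbxo2. The direction of all genes past both thresholds also depended on scale, with 944 higher and 1265 lower as deposited, 2145 and 789 with totals, 1296 and 1025 with the upper quartile, and 1089 and 850 with spermatocyte markers. Their number was 1244 with the 100-read filter against 2209, where fewer genes were tested. Pathway genes past both thresholds were 6 in libraries 4 and 5 against 11. Genes without a call changed sign as follows. With totals Cul4b had a log2 fold change of 0.0774, Skp1a 0.0787, Fbxo36 0.0983 and Cul2 0.148. With the upper quartile Cul2 had 0.0127, and with spermatocyte markers Skp1a had 0.0010, Fbxo36 0.0206 and Cul2 0.0706. In libraries 4 and 5 Cul4b had 0.0684, Cul7 −0.0212 and Rbx1 −0.0343, and in libraries 1 to 3 Cul9 had −0.136. Leaving out each library in turn, Cul9 ran from −0.0961 to 0.138 and Cul4a from −0.0185 to 0.0525. The cause of these changes was not tested. Of the 65 uncalled genes, 19 had intervals too wide to exclude a 1.5-fold change.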
